A study of Mus musculus with 2 samples.

Results

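Apolipoproteins are the protein parts of lipoproteins, the particles that carry cholesterol and triglycerides in blood. The 10 apolipoprotein genes described here are Apoa1, Apoa2, Apoa4, Apoa5, Apob, Apoc1, Apoc2, Apoc3, Apoe and Apoh. They were chosen by gene name among the 30153 gene names on the array, and every probe of each gene was read, 13 probes of 39390. RNA of mature hepatocytes (MHs) from healthy livers and RNA of Sox9+EpCAM- cells from livers damaged by a diet with DDC, a compound that injures bile ducts, was each hybridised to 1 Agilent mouse array. Both kinds of cells came from Sox9-EGFP mice, in which cells that express Sox9 are seen as GFP+ cells. MHs were enriched by low-speed and Percoll centrifugation, whereas Sox9+EpCAM- cells were sorted by FACS as GFP+EpCAM- cells. The ages and number of mice behind the arrays are not given in the sources used here. DDC was fed for 2 weeks before PCR of these kinds of cells, and whether this held for the arrays too is not stated. With 1 array per group there were no replicates, so no difference below carries an SD between samples or a test. Precision is limited by the number of arrays.

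Both arrays lay on 1 slide and were scanned together. All 5 genes fixed as a check of sex spoke against the label of the MH array: both samples are labelled male, but Xist, which is transcribed in females, stood well above background in MHs alone and 4 Y-linked genes in Sox9+EpCAM- cells alone. The sex of the mice therefore cannot be told apart from the diet and the isolation in any difference below. Of 6 hepatocyte markers all stood well above background in both samples and all were lower in Sox9+EpCAM- cells, their median log2 difference being -1.27; 5 were lower under scaling to Gapdh, quantile normalization and without scaling. Of 6 cholangiocyte markers, 4 were higher and 2 lower, with Spp1 122-fold and Epcam 13.3-fold higher although the cells were sorted as EpCAM-, while the defining Krt7 and Krt19 had log2 differences of -0.23 and 0.42, that of Krt7 turning under scaling to Gapdh. Of 7 stellate cell and fibroblast markers with a value, 5 were higher and 2 lower, and the 8 on the array summed to an intensity of 9376 in MHs and 49059 in Sox9+EpCAM- cells. The part of these other cell types in the results was not tested. In such bulk RNA, fewer cells of a type and less RNA per cell cannot be told apart.

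Hepatocytes make most of the apolipoproteins in plasma. Apob, one molecule of which stays with each particle, is loaded with lipid while it is made and is the scaffold of very low density lipoproteins (VLDL) and of the low density lipoproteins formed from them. Apoa1 and Apoa2 are the main proteins of high density lipoproteins (HDL), and the smaller C proteins and Apoe move between particles and set how fast their triglyceride is broken down and how fast the remnants are cleared.

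The array measures each gene through a probe 60 bases long. The probes shown here are those of the HDL protein Apoa1, of Apoa4, which had the largest rise of the 10 genes, of Apob, for which 2 separate stretches of the transcript were read, and of Apoe. They are given 5′ to 3′ in the direction of the transcript and in lower case throughout, since the whole probe was the site of hybridisation.
Apoa1 probe: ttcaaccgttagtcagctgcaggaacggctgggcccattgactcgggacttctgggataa
Apoa4 probe: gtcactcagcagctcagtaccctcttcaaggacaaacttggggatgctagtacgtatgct
Apob brightest probe: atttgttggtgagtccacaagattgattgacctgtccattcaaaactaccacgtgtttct
Apob other probe: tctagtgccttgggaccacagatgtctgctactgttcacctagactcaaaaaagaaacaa
Apoe probe: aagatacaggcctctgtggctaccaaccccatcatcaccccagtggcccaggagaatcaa
On mm9, the build of the array design, the Apoa1 probe lies on the forward strand at chr9:46037921-46037980 and the Apoe probe on the reverse strand at chr7:20281732-20281791. The Apob probes lie on the forward strand at chr12:8023194-8023253 and chr12:8012697-8012756. The 60 bases of the Apoa4 probe are spread over 744 bases at chr9:46049661-46050404, so they join stretches that are apart in the genome. Each of these probes can be read without a stop codon in at least 1 frame. None of the 13 apolipoprotein probes has 20 bases in a row in common with another gene's probe on the array.

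All 10 genes stood well above background in both samples and no spot was saturated, the brightest reaching 25.2% of the saturation value. Each intensity was divided by the 75th percentile of its array, 741 for MHs and 1110 for Sox9+EpCAM- cells, before log2 was taken. This scaling lowers every difference by 0.58 on the log2 scale compared with the unscaled intensities. The log2 difference is Sox9+EpCAM- minus MH throughout, and the brightest probe stands for a gene. The scanner software gave an error of 10% for a spot at these intensities, which amounts to 0.20 on the log2 scale for a difference between single spots.

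Of the 10 apolipoprotein genes, 2 were higher in Sox9+EpCAM- cells, Apoa4 and Apoa5, and 8 were lower, of which Apoa1, Apob and Apoc2 changed direction under at least 1 other scaling. Of all genes measured above background in both samples, 59.9% were lower, 55.2% under quantile normalization, 46.4% under scaling to Gapdh and 31.0% without scaling. At least 2-fold differences were seen for both higher genes and for 3 lower genes, Apoc1, Apoc3 and Apoh, and 5 genes stayed within 2-fold. No apolipoprotein gene was 4-fold higher or lower. Among 19235 genes measured above background in both samples, 11.8% were at least 2-fold higher and 17.4% at least 2-fold lower, and 3.94% and 4.75% passed 4-fold in these directions. Counts of 2 and 3 in 10 genes are too few to be set against these shares and are not read as a result about the family. The median log2 difference was -0.70 over the apolipoprotein genes and -0.19 over all genes measured on both arrays. Under quantile normalization the medians were -0.11 and -0.10, so this gap was no longer seen there. The genes ranged from -1.51 to 1.64, and 3 of the 10 lay between the quartiles of all genes, which were -0.74 and 0.39.

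**Figure D1:**
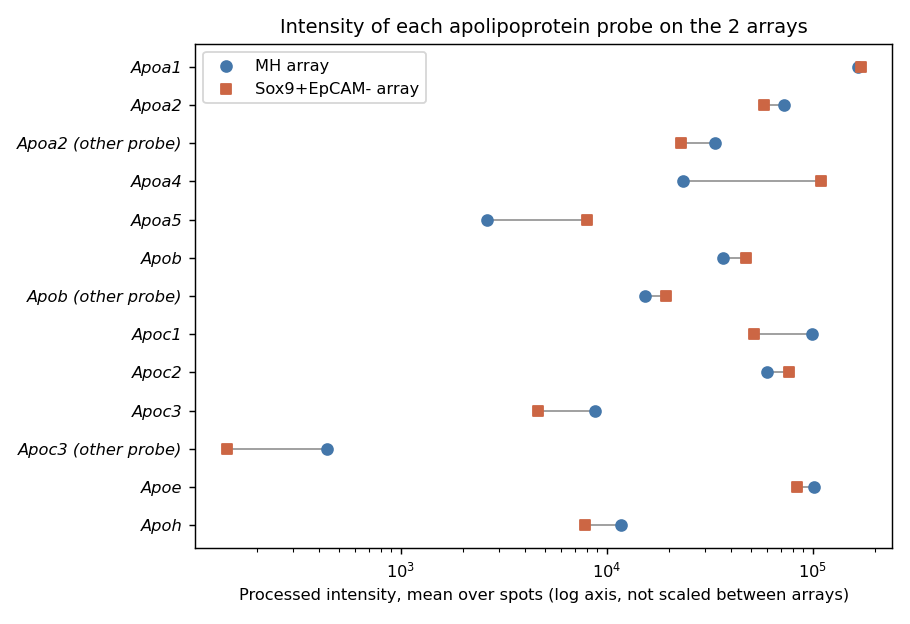
Processed intensity of each of the 13 apolipoprotein probes on the MH array (circles) and the Sox9+EpCAM- array (squares), on a log axis and without scaling between arrays; a probe printed 10 times is shown as the mean of its spots. The squares of Apoa4 and Apoa5 lie far to the right of the circles, those of Apoc1, Apoc3 and Apoh to the left, and the pair of Apoa1 nearly coincides.

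Apoa4 and Apoa5 are proteins of triglyceride-rich particles and HDL. Apoa4 is made in the intestine and, in rodents, also in liver, and Apoa5 is a liver protein that promotes the breakdown of triglycerides by lipoprotein lipase. The intensity of Apoa4 was 23500 in MHs and 110000 in Sox9+EpCAM- cells. This was the largest rise of the family, a log2 difference of 1.64 or 3.12-fold. Apoa5 had an intensity of 2630 in MHs and 8020 in Sox9+EpCAM- cells, a difference of 1.03 (log2) or 2.04-fold. Both differences are several times the error of a pair of spots, and each gene has 1 probe with 1 spot. Both genes were higher in all 13 settings, which are the reported one and 12 alternatives of scaling, background correction, probe choice and filter. Only the alternatives of scaling and background correction could move these genes, since each has 1 spot, unflagged and well above background. Over all settings Apoa4 ranged from 1.46 to 2.23 and Apoa5 from 0.85 to 1.61, so the 2-fold mark of Apoa5 depended on the scaling and that of Apoa4 did not.

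Apoc1 and Apoc3 were lowest relative to MHs. Apoc3 slows the clearance of triglyceride-rich particles and Apoc1 hinders their uptake by receptors, whereas Apoc2 is the cofactor that lipoprotein lipase needs. The intensity of Apoc1 was 99000 in MHs and 52100 in Sox9+EpCAM- cells, a difference of -1.51 (log2) or 2.85-fold lower. Apoc3 had an intensity of 8800 in MHs and 4630 in Sox9+EpCAM- cells, also 2.85-fold lower. A dimmer probe of Apoc3, placed on a separate Ensembl transcript at chr9:46043606-46043665, fell from 440 to 143, a log2 difference of -2.20 or 4.61-fold. The probes of Apoc3 thus had the same direction and differed in size, and only by the dimmer one would Apoc3 pass 4-fold. Apoc2 differed little, with an intensity of 60300 in MHs and 76700 in Sox9+EpCAM- cells. Its log2 difference of -0.24 is about the error of a pair of spots, and its direction turned under scaling to Gapdh (0.03), quantile normalization (0.31) and without scaling (0.35). Apoc1 and Apoc3 were lower in all 13 settings, but Apoc1 did not reach 2-fold under quantile normalization (-0.95), nor did either gene without scaling (-0.93 for both).

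The HDL proteins were lower by smaller amounts. Apoa1, the main protein of HDL and the activator of the enzyme Lcat, was read by 10 spots, of which 2 were left out as outliers. Its intensity averaged 166625 in MHs, with single spots from 150000 to 187000, and 171250 in Sox9+EpCAM- cells, with spots from 164000 to 197000. The unscaled spots of the arrays overlap. After scaling the log2 difference was -0.54, with an SD between spots of 0.10 in MHs and 0.09 in Sox9+EpCAM- cells, and the scaled spots ran from 7.66 to 7.98 and from 7.21 to 7.47 on the log2 scale and did not overlap. The direction of Apoa1 thus rests on the scaling, and it was 0.05 under quantile normalization. Apoa2 has 2 probes, both lower. The brighter had an intensity of 72600 in MHs and 58000 in Sox9+EpCAM- cells, a difference of -0.91 (log2). The other read 33500 and 23000, a difference of -1.13, which is past 2-fold where the first is not.

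**Figure D2:**
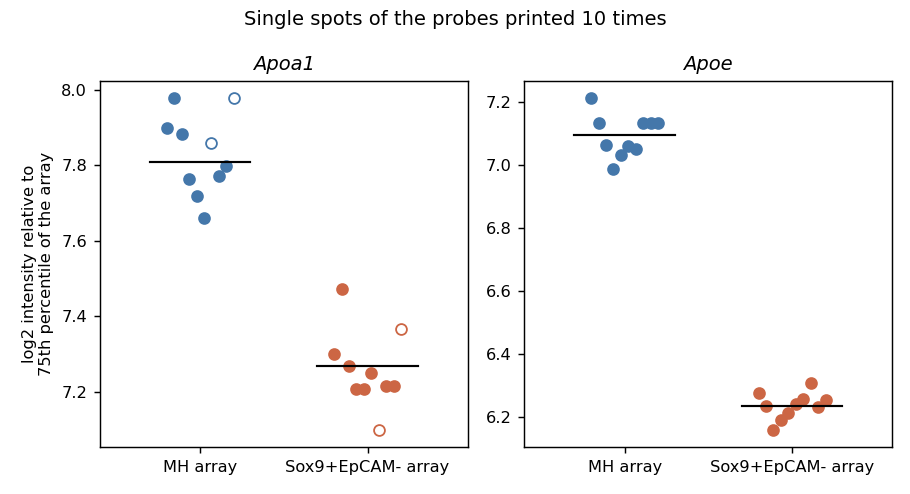
Each of the 10 spots of the Apoa1 probe and of the Apoe probe, as log2 intensity relative to the 75th percentile of its array, on the MH array and the Sox9+EpCAM- array; lines are means of the spots used, open circles are spots left out as outliers, and the vertical axes do not start at 0. Spots of an array share 1 RNA and are not replicates; the spots used do not overlap between arrays for either gene, with differences of -0.54 for Apoa1 and -0.86 for Apoe.

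Apob hardly differed between the arrays. Its intensity was 36700 in MHs and 47300 in Sox9+EpCAM- cells by the brightest probe, a log2 difference of -0.22. The other probe, about 10.5 kb upstream in the gene, read 15400 and 19400, a difference of -0.25. The probes gave nearly the same value, but the direction turned under scaling to Gapdh (0.05), quantile normalization (0.27) and without scaling (0.37). Apob is thus within the range that the choice of scaling covers.

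Apoe, the ligand through which receptors of the liver take up remnants, is made by hepatocytes and also by macrophages and stellate cells. Over 10 spots its intensity averaged 101360 in MHs, from 94100 to 110000, and 83760 in Sox9+EpCAM- cells, from 79300 to 87900. The spots did not overlap even without scaling. The log2 difference was -0.86 or 1.81-fold lower, with SDs between spots of 0.07 and 0.04, and it was lower in all 13 settings, the smallest difference being -0.26 under quantile normalization. Of 12 macrophage and Kupffer cell markers, 11 were lower on the Sox9+EpCAM- array and 1, Cd68, was higher (14.4-fold, or 3.85 on the log2 scale, and 2.50 by its other probe). They summed to an intensity of 27074 in MHs and 16153 in Sox9+EpCAM- cells, of which Csf1r alone gave 12200 and 13700 by its brightest probe. The probes of Csf1r disagree in size, from -2.71 to -0.42, so these sums depend on the choice of probe. Clec4f, a marker of Kupffer cells, fell from 6780 to 118, and Vsig4 and C1qc were not well above background in Sox9+EpCAM- cells. The part of these cells in the difference of Apoe was not tested. Apoh, also called beta-2-glycoprotein I, is a plasma protein that binds phospholipids and is a minor component of lipoproteins. Its intensity was 11700 in MHs and 7810 in Sox9+EpCAM- cells, a difference of -1.17 (log2) or 2.24-fold lower. Apoh was lower in all 13 settings but within 2-fold under scaling to Gapdh (-0.90), quantile normalization (-0.80) and without scaling (-0.58).

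**Figure D3:**
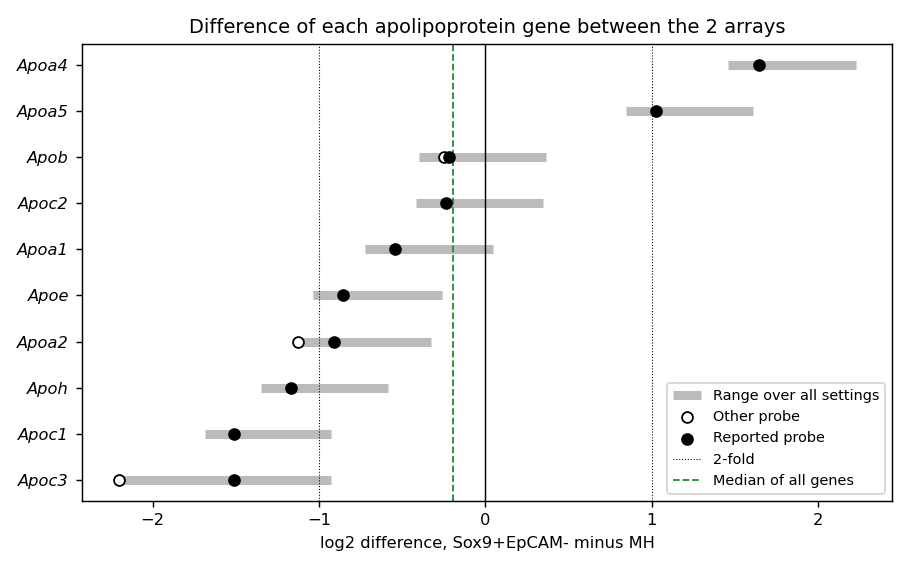
Log2 difference, Sox9+EpCAM- minus MH, of the 10 apolipoprotein genes, as filled circles for the reported probe, open circles for the other probe of Apoa2, Apob and Apoc3, and grey bars for the range over the 13 settings; dotted lines mark 2-fold and the dashed line the median of all genes (-0.19). The bars of Apoa4 and Apoa5 lie wholly above 0, those of Apoc3, Apoc1, Apoh, Apoa2 and Apoe wholly below, and those of Apob, Apoc2 and Apoa1 reach both sides.

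Of the 10 genes, 7 lie in 2 clusters. In the RefSeq gene table (GRCm38.p6), Apoa1, Apoc3, Apoa4 and Apoa5 follow each other on chromosome 9 with no other protein-coding gene between them, and Apoc2, Apoc4, Apoc1 and Apoe do so on chromosome 7. Neighbours differed in direction on chromosome 9. From the probe of Apoa1, that of Apoc3 lay 3.21 kb, that of Apoa4 11.7 kb and that of Apoa5 42.0 kb away on mm9, and the differences along this order were -0.54, -1.51, 1.64 and 1.03. The ratio of the Apoa4 signal to the Apoa1 signal was thus 4.55-fold higher in Sox9+EpCAM- cells and that of Apoa4 to Apoc3 8.90-fold higher. Ratios within an array do not depend on its overall scaling and show unequal change only. On chromosome 7 the differences were -0.24 for Apoc2, -1.51 for Apoc1 and -0.86 for Apoe, and the ratio of Apoc2 to Apoc1 was 2.42-fold higher. Apoc4, which is no member and lies beside Apoc2, had intensities of 17600 and 22300 and a difference of -0.24, which turned under scaling to Gapdh (0.02) and quantile normalization (0.21).

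**Figure D4:**
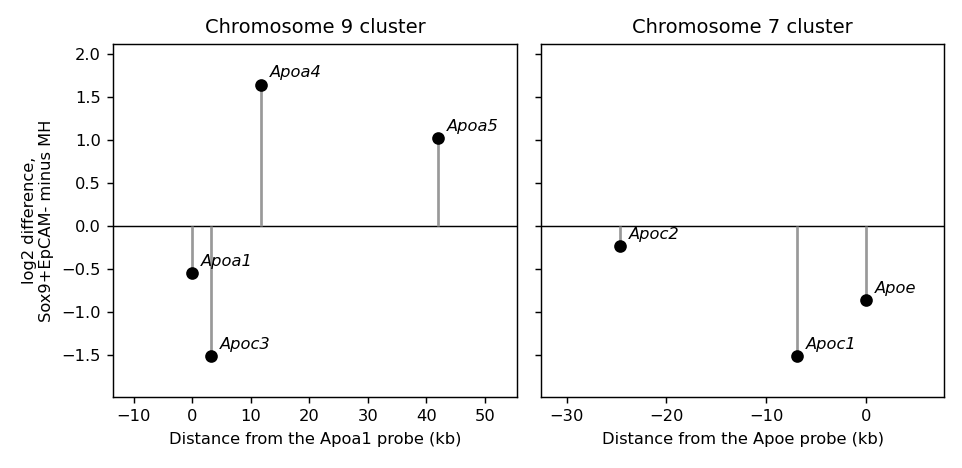
Log2 difference, Sox9+EpCAM- minus MH, of the genes of the chromosome 9 cluster and of the chromosome 7 cluster against the distance of the probe from that of Apoa1 or Apoe, in kb on mm9. On chromosome 9, Apoa1 and Apoc3 lie below 0 and Apoa4 and Apoa5 above, while the 3 genes of chromosome 7 lie below; the direction of Apoa1 turned under quantile normalization and that of Apoc2 under scaling to Gapdh too.

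The 250 bases before the annotated start are shown for the 2 genes of the chromosome 9 cluster that were higher and for Apoa1, their neighbour that was not. They are RefSeq promoters of GRCm38.p6 on the forward strand, at chr9:46268358-46268607 for the more upstream start of Apoa5, chr9:46240594-46240843 for Apoa4 and chr9:46228380-46228629 for Apoa1. Capitals mark the letters that were searched on both strands, which are the TATA box TATAAA, the CCAAT box CCAAT, the nuclear receptor element AGGTCA, its variant GGGTCA, and AAGTCCA, which is part of a site of Hnf4a.
Apoa5 promoter: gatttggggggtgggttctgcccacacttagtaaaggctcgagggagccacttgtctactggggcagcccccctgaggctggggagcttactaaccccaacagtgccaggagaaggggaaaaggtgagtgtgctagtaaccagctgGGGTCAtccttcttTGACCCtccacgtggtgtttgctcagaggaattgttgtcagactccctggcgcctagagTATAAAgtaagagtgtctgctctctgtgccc
Apoa4 promoter: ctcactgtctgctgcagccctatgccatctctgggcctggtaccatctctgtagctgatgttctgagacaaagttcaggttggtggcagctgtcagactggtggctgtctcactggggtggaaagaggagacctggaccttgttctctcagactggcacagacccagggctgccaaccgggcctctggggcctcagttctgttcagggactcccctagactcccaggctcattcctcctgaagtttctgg
Apoa1 promoter: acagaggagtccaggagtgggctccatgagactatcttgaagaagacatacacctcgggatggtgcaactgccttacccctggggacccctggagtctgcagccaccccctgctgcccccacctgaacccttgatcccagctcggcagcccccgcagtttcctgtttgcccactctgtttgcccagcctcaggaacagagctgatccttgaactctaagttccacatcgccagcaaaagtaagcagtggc
The window of Apoa5 holds TATAAA, its first letter 31 bases before the start, and GGGTCA on each strand, beginning 104 and 90 bases before the start. GGGTCA was added after a first search of these promoters, and AGGTCA is not found in this window. None of the letters searched is found in the windows of Apoa4 and Apoa1. Only exact letters were searched, so a window without a match may still hold a site spelled otherwise. Letters searched were also found at genes that were lower, TATAAA in a window of Apoa2, of Apob and of Apoe, GGGTCA in a window of Apoe, AAGTCCA and CCAAT in both windows of Apoa2, and AGGTCA in a window of Apoa2, of Apoc2 and of Apoh. Among 32851 promoters of this length, 12.4% hold TATAAA, 33.8% CCAAT, 14.0% AGGTCA, 11.6% GGGTCA and 3.36% AAGTCCA. The matches are descriptions of these windows and not sites of binding. The table gave promoters for 8 of the 10 genes, 12 in all.

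Other genes with apolipoprotein names and genes of lipoprotein metabolism were counted in lists. The counts are to be read beside the 59.9% of all genes that were lower and the 17.4% that were at least 2-fold lower. The first list was chosen by name, and a name alone does not place a gene in lipoprotein metabolism. Of 10 other genes with apolipoprotein names that had a value, 9 were lower and 1 higher, with a median log2 difference of -0.80, and 4 were at least 2-fold lower; under scaling to Gapdh or quantile normalization 8 were lower and 2 higher. Apom, which carries sphingosine phosphate on HDL, was 2.19-fold lower and Apof, a regulator of lipid transfer, 2.07-fold lower. Both were within 2-fold under scaling to Gapdh, quantile normalization and without scaling. Apol9a has 2 probes that disagree: by the brightest it fell from 22500 to 4120, a difference of -3.03, and by the other the difference was -0.31. Of the 10 genes of lipoprotein assembly and secretion, 9 were lower and 1 higher, but 6 lower and 4 higher under scaling to Gapdh or quantile normalization. The median was -0.44 and 2 genes were at least 2-fold lower. Mttp, the transfer protein that loads Apob with lipid, had intensities of 9340 and 9600 and a difference of -0.54. Tm6sf2, a protein of VLDL lipidation, differed by -1.47 on the log2 scale and Sar1b, of the vesicle coat that exports large particles, by -1.23. Sar1b was within 2-fold under scaling to Gapdh (-0.96), quantile normalization (-0.88) and without scaling (-0.65), and Tm6sf2 without scaling (-0.89).

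Most genes of HDL formation and plasma remodelling were lower. Of 10 genes, 9 were lower and 1 higher, with 7 at least 2-fold lower and none at least 2-fold higher. The 9 measured on both arrays had a median of -1.47, and 7 of these 9 were lower under scaling to Gapdh and 8 under quantile normalization. Lcat, which esterifies the cholesterol of HDL, had intensities of 30500 and 17300 and a difference of -1.40, which was within 2-fold under quantile normalization (-0.92). Lipc, the hepatic lipase, fell from 8360 to 3240, a difference of -1.95, and Pon1, an esterase carried by HDL, from 10936 to 1868, a difference of -3.13. Abca1, the transporter that gives lipid to Apoa1, differed by -0.24 (0.03 under scaling to Gapdh), and Pltp, the phospholipid transfer protein, was higher by 0.66. Macrophages or endothelium are known to express Abca1 and Pltp as well as Lipg, the endothelial lipase, which differed by -2.67, Abcg1, a cholesterol exporter, which was at least 9.04-fold lower, and Lpl, lipoprotein lipase, which differed by -0.84, or by -1.67 and thus past 2-fold by its other probe. The macrophage and Kupffer cell markers measured on both arrays had a median of -2.71 and the endothelial markers, summing to an intensity of 4665 in MHs and 2244 in Sox9+EpCAM- cells, one of -2.24. The part of these cells in the list's differences was not tested.

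Receptors and lipase inhibitors went both ways. Of 8 receptor genes with a value, 4 were higher and 4 lower, with a median of 0.03, which was -0.40 over the median of each gene's probes. At least 2-fold, 2 were lower and 0 higher. Lrp1, a receptor of remnants, counts as higher by its brightest probe (0.38), but its 3 probes reach down to -2.37. Vldlr, a receptor of triglyceride-rich particles, fell from 591 to 88.5, a difference of -3.32 (-2.07 by its other probe), and Scarb1, the HDL receptor, differed by -0.81, and by -0.18 by its other probe. Stab2, a scavenger receptor of sinusoidal endothelium, differed by -3.02, the lowest of its 3 probes, which reached up to -1.73, and of 4 endothelial markers with a value, Stab2 included, all were lower; their part was not tested. Of 6 inhibitors and anchors of lipases and receptors, 5 were lower and 1 higher, with 3 at least 2-fold lower and 1 higher, and of the 5 measured on both arrays 3 were lower and 2 higher under scaling to Gapdh or quantile normalization. The one that was higher as reported was Angptl4, an inhibitor of lipoprotein lipase, which rose from 3950 to 31100, 5.26-fold. Apobec1, which edits Apob mRNA, was 1.89-fold higher and its partner A1cf differed by -0.97; the arrays do not show which form of Apob was made.

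Among the 14 regulators of apolipoprotein transcription with a value, 9 were lower and 5 higher; of the 13 measured on both arrays, 7 were lower under scaling to Gapdh or quantile normalization. The 13 had a median of -0.61, and at least 2-fold 4 of the 14 were lower and 1 higher. Those lower were Srebf1, Nr1h3, a sterol receptor (-1.52), Cebpa, a factor of hepatocyte differentiation (-1.29), and Foxa2, of liver development (-1.23, but 0.07 by its other probe). Foxa2 was within 2-fold under scaling to Gapdh (-0.96), Cebpa under quantile normalization (-0.95), and Nr1h3, Cebpa and Foxa2 without scaling. Hnf4a, which binds the promoters of many apolipoprotein genes, differed by -0.23, with intensities of 4990 and 6360, and its direction turned under scaling to Gapdh (0.03), quantile normalization (0.06) and without scaling (0.35). Creb3l3, a liver factor known to raise Apoa4 and Apoa5, differed by 0.07 (-0.11 in the deposited table), and Ppara, a fatty acid receptor known to raise Apoa5 and lower Apoc3, by -0.89, with its probes from -1.58 to -0.14. Srebf2, the regulator of sterol synthesis and the one counted as 2-fold higher, was higher by 1.25 but by 0.76, within 2-fold, by its other probe, and Srebf1, of fatty acid synthesis, differed by -1.59. For comparison, all 16 other plasma proteins of hepatocytes were lower, although 15 were so under scaling to Gapdh and 13 under quantile normalization. Their median was -0.77, and 3 were at least 2-fold lower, Ttr, Serpinc1 and Serpina1a. These were all within 2-fold under scaling to Gapdh, quantile normalization and without scaling. Alb, for albumin, had intensities of 207000 and 170000 and a difference of -0.87. The lists were chosen with earlier results known, and their counts describe these 2 arrays only.

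**Figure D5:**
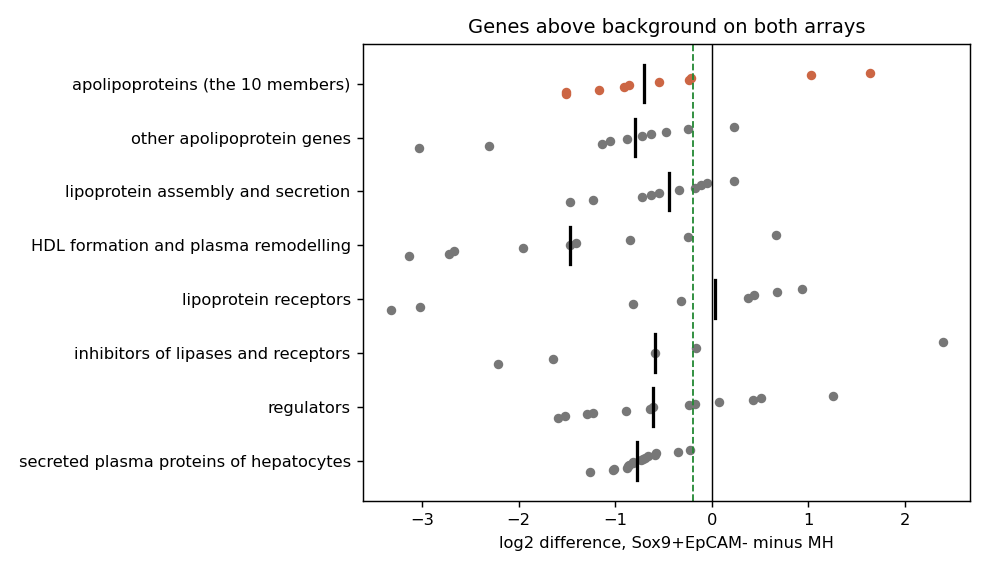
Log2 difference, Sox9+EpCAM- minus MH, of the genes well above background on both arrays in each list drawn, with Apob editing and the cell type markers left out. Black bars are medians and the dashed line is the median of all genes (-0.19). Apoa4 and Apoa5 are the points of the apolipoprotein row to the right of 0, while the plasma proteins of hepatocytes all lie to the left under the reported scaling (13 of 16 under quantile normalization) and HDL formation and plasma remodelling has the lowest median of the lists drawn (-1.47).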

How the data were processed

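RNA of 1 MH sample and 1 Sox9+EpCAM- sample was labelled with Cy3 and hybridised by a service provider. The authors deposited, for each array, spot intensities from Feature Extraction 10.7.3.1, background-subtracted and detrended within the array, with flags (0 or 1, other than measurements) and no normalization between arrays. The deposited table holds ratios, each intensity divided by the median over the 43020 non-control spots of its array (SD of the log2 factor 0.0018 on both). Here each intensity was divided by its array's 75th percentile, log2 was taken, outlier spots were dropped and the spots of a probe averaged. The brightest probe stands for a gene. A probe not well above background on 1 array enters by a bound. Probe coordinates are on mm9.

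The apolipoprotein genes and the lists were chosen with earlier results of these data known. The text names all 10 members with every probe and genes of the lists; the variant receptor element was added after a first search of the promoters. The alternatives were normexp correction (limma 3.58.1 in R 4.3.3, offset 50), centring on probes above background, quantile normalization, scaling to Gapdh, the deposited table, other choices of probe, outlier spots kept, no bound, genes restricted to those above background in both samples, and folds of 2 and 10. Unscaled intensities were added after seeing the data. Changes of over 1.5-fold between settings were counted as moves. Python 3.11.15, pandas 2.3.3 and numpy 2.4.6 were used, and the procedure was tested on simulated data. Single values of some genes of the lists are not reported here.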

Additional observations from a re-analysis of the deposited data

How the results depend on the processing

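No paired analysis was possible because there was a single array of each kind, and for the same reason neither a block for the slide nor a fit without 1 replicate was run. Apoa4 and Apoa5 stayed higher and Apoa2, Apoc1, Apoc3, Apoe and Apoh lower in all 13 settings, while Apoa1 was higher under quantile normalization and without scaling, and Apob and Apoc2 were higher in 3 settings. Of 280 values recomputed under alternatives, counts of genes included, 14 moved and 135 were identical to the reported ones. A value moved if it changed by over 1.5-fold, and a count also if it changed to or from 0. The identical ones include every value without the bound and every value over genes above background alone, so these numbers say little about stability. Without scaling every difference shifts by just under 1.5-fold, so no single gene counts as moved there although 3 turned direction. Quantile normalization gave a median of -0.11 for the apolipoprotein genes, 0.05 for Apoa1, -0.26 for Apoe, 1 gene at least 4-fold higher (Apoa4, 2.16) and 1 at least 2-fold lower. The deposited table gave 5 genes at least 2-fold lower and 1 at least 2-fold higher. The probe with the lowest (most negative) difference gave -2.20 for Apoc3, the 1 gene then 4-fold lower, and a median of -0.56 for the receptors. Unscaled intensities gave 1 gene at least 4-fold higher and 0 at least 2-fold lower. By construction, choices of probe cannot move the 7 genes with 1 probe, nor can the bound move any of the 10; other causes were not tested. In place of 4-fold, which no gene passed as reported, a 2-fold rule gave 3 genes lower and 2 higher and a 10-fold rule 0 and 0. The median of all genes was -0.19 as reported, -0.10 under quantile normalization, 0.07 under scaling to Gapdh, -0.37 in the deposited table and 0.39 without scaling. Of all genes at least 2-fold different, 40.4% were higher as reported, 57.4% under Gapdh, 29.8% in the deposited table, 51.9% by the probe with the largest difference and 75.4% without scaling. Signal over background did not limit these 10 genes.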
